A study of Arabidopsis thaliana with 4 samples.

Results

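This section describes 24 probe sets of the Arabidopsis ATH1 array whose signal was lower after wounding in the opr3 line while it stayed within 2-fold in wild type (wt). They were chosen from 14599 probe sets by their measured values. A member had its highest value over the 4 arrays at or above 4.73 (log2), and its signal was at least 2-fold lower in opr3 wounded than in opr3 control. It also differed by less than 2-fold between wt wounded and wt control, and the opr3 difference lay at least 2-fold below the wt difference. Of 30 probe sets that met these values, 6 were left out by name (AT1G05575, AT1G33760, AT2G24600, EXO, PUB25 and WRKY22). Of the 24 members, 8 were paired with 1 gene in the platform annotation, 2 with several genes, and 14 were not listed there and are unnamed here. Since the leaving out went by gene name, it could not reach these 14.

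The study hybridised 1 array for each of 4 groups of plants that were 6 weeks old: wt control, wt systemic wounding, opr3 control and opr3 systemic wounding. Both lines grew in short days (10 h light, 14 h dark) at 21 °C. In the wounded groups some leaves of each rosette were squeezed with tweezers over the midvein, and 2 h later RNA was taken from the leaves left intact. Control plants were not wounded. For the wounded opr3 array the treatment label names WT plants and the title names opr3, and the title was followed. The sources used here do not give the opr3 allele, the accession of either line or the number of plants behind an array. The values are log2 expression from RMA. With 1 array per group there is no spread between plants, so no difference below has a test, a p-value or a standard error.

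A wounded leaf sends signals to unwounded leaves of the rosette, where jasmonates then accumulate. OPR3, the oxophytodienoate reductase of the peroxisome, reduces OPDA on the way to jasmonic acid. Its isoleucine conjugate is the hormone that the receptor COI1 senses, which leads to the loss of JAZ repressors and frees MYC transcription factors. OPDA can itself change the expression of some genes. Wounded rosettes are known for raised defence transcripts and for lowered transcripts of growth.

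In opr3 the members were lower after wounding by a median log2 difference of -1.51, from -2.90 to -1.02, as the choice required. In wt the same probe sets had a median difference of -0.03, between -0.69 and 0.88, and 15 of the 24 lay within 0.25 of no difference, as did 51.5% of all probe sets. Over all 14599 probe sets the medians were -0.03 in opr3 and -0.05 in wt. Of all probe sets used, 1.68% were at least 2-fold lower in opr3 after wounding, 1.79% were lower in wt, and 1.32% had an opr3 response at least 2-fold below the wt response. These shares describe the contrasts that chose the members and nothing is read from them.

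**Figure D1:**
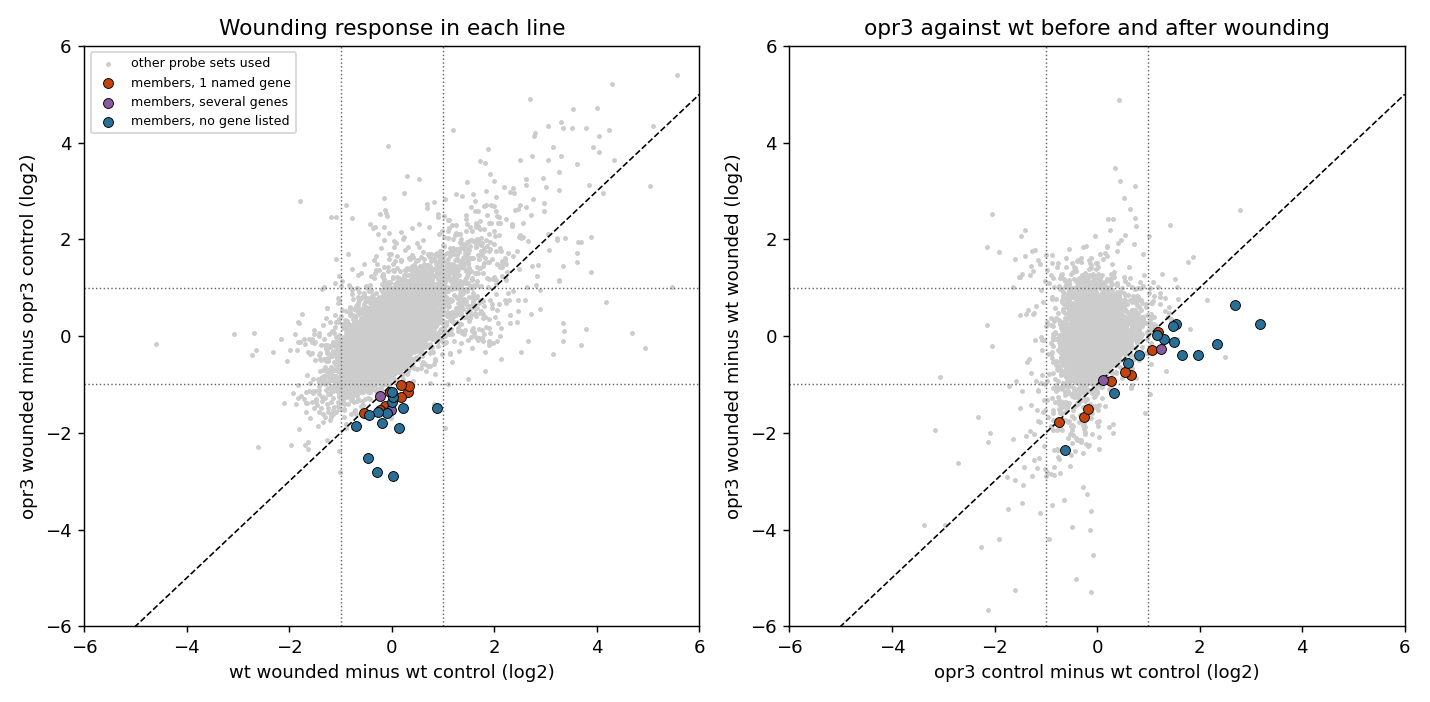
Each point is a probe set (log2 differences on both axes), with the 24 members coloured by whether the annotation pairs them with 1 gene, several genes or none, and the other probe sets used in grey. Dotted lines mark 2-fold and the dashed line marks an opr3 value 2-fold below the wt value on the left, and a wounded gap 2-fold below the control gap on the right. On the left the members lie below -1 in opr3 and between -0.69 and 0.88 in wt, and on the right they spread from a control gap of 3.17 to a wounded gap of -2.35.

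The same decrease in opr3 came from different starting and end points. Of the 24 members, 13 were at least 2-fold higher in opr3 control than in wt control and 5 were at least 2-fold lower in opr3 wounded than in wt wounded. The other 6 met neither, and no member met both. The background shares of these calls were 0.418% of all probe sets for a higher signal in opr3 control and 1.66% for a lower one in opr3 wounded. The gap between the lines in control plants and the opr3 response both contain the opr3 control array, and the choice bounds how far the gaps of control and wounded plants lie apart, so this split is a description. Among the 8 members with 1 gene the counts were 2, 3 and 3, and among the 14 without a listed gene 10, 2 and 2. Of the 6 probe sets left out by name, 5 were at least 2-fold higher in opr3 control, which makes 18 of 30 when they are kept.

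**Figure D2:**
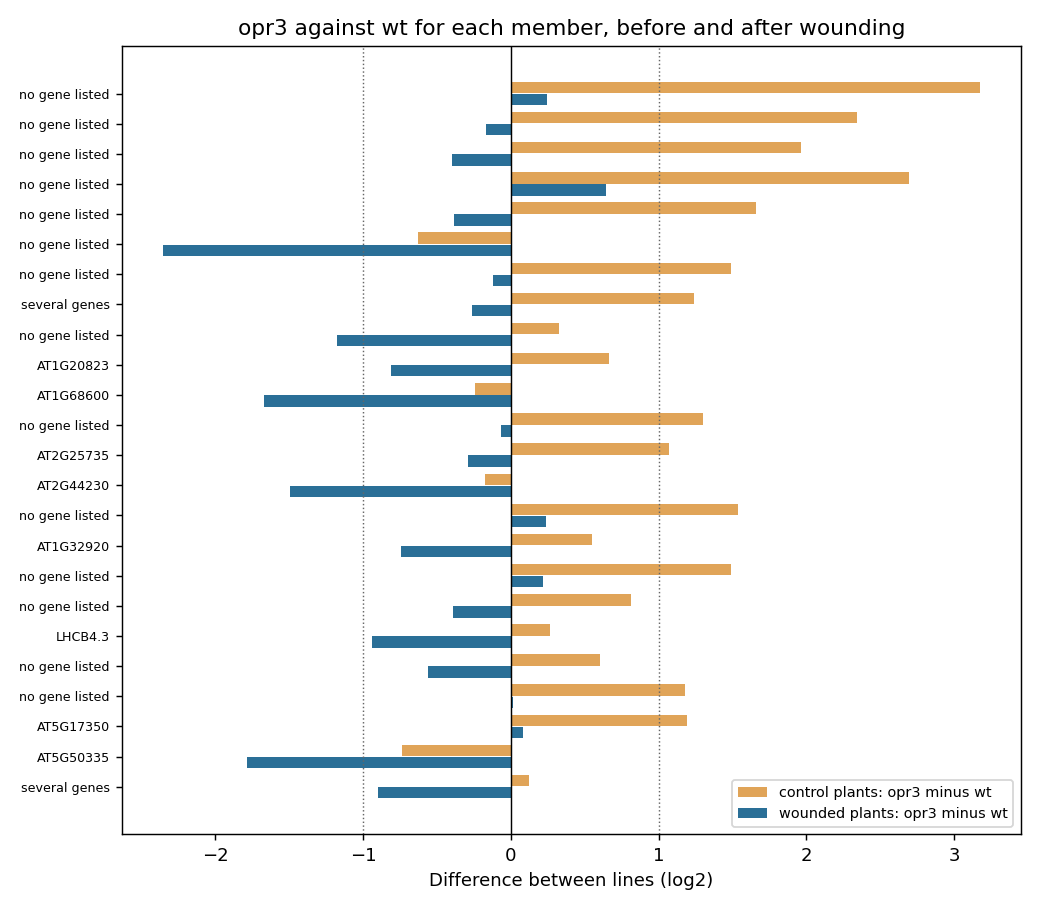
Horizontal bars give, for each of the 24 members, the log2 difference opr3 minus wt in control plants (upper bar) and in wounded plants (lower bar), ordered from the lowest difference of responses at the top, with dotted lines at 2-fold. For 13 members the control bar reaches past 1, for 5 the wounded bar reaches past -1, and for no member do both.

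AT1G68600, AT2G44230 and AT5G50335 had their main gap in the wounded plants. AT1G68600 belongs to the family of aluminium-activated malate transporters, anion channels of plant membranes. Its level was 8.56 in wt control, 8.74 in wt wounded, 8.32 in opr3 control and 7.07 in opr3 wounded, so the wounded opr3 array was low and the others lay close together. It was 2.38-fold lower after wounding in opr3 and 1.13-fold higher in wt, and wounded opr3 was 3.19-fold below wounded wt. Of the 14 written loci of this family, a list made after the values were seen, 4 were named on the array, and only AT1G68600 passed the filter. AT2G27240, AT4G00910 and AT4G17585 stayed between 3.75 and 4.48 in all arrays, near background.

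AT2G44230 was at 6.83 in wt control, 6.71 in wt wounded, 6.66 in opr3 control and 5.21 in opr3 wounded. Again 3 arrays lay together and wounded opr3 was low, 2.73-fold below opr3 control and 2.82-fold below wounded wt. AT5G50335 was at 7.18, 6.64, 6.44 and 4.86 in the same order. Here wounding went with a lower level in both lines, by 1.45-fold in wt and 3.0-fold in opr3, and opr3 was below wt already in controls, by 1.66-fold. Its wounded opr3 value lay just above the filter level of 4.73, where RMA draws values together and differences are understated. No role is stated here for AT2G44230 and AT5G50335.

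AT1G20823, AT1G32920 and LHCB4.3 lay between these patterns, somewhat above wt in controls and below it after wounding. AT1G20823 encodes a RING-type ubiquitin ligase of the ATL family, enzymes that mark other proteins for degradation. It was at 6.16 in wt control, 6.48 in wt wounded, 6.82 in opr3 control and 5.67 in opr3 wounded, highest and lowest in the 2 opr3 arrays. After wounding it was 1.25-fold higher in wt and 2.23-fold lower in opr3. The ATL genes named as such in the gene table, taken up after the values were seen, included 3 that passed the filter, ATL5, ATL8 and ATL63, with opr3 responses of 0.08, -0.10 and -0.45 (log2) and wt responses of 0.26, -0.57 and 0.04. None of them was at least 2-fold lower in either line.

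AT1G32920 was at 8.39 in wt control, 8.16 in wt wounded, 8.94 in opr3 control and 7.42 in opr3 wounded. It was 2.88-fold lower in wounded opr3 than in opr3 control and 1.18-fold lower in wt, and the opr3 arrays were again the highest and the lowest.

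LHCB4.3 encodes a form of CP29, a minor antenna protein that passes light energy to photosystem II. It was at 8.68 in wt control, 8.86 in wt wounded, 8.94 in opr3 control and 7.92 in opr3 wounded. Its first 3 values lay close together, and wounded opr3 was 2.02-fold below opr3 control and 1.92-fold below wounded wt. Its opr3 difference of -1.02 was the smallest of the members, and with cyclic loess scaling it was -0.96 and LHCB4.3 was no longer chosen. For the other CP29 genes neither line was past 2-fold. LHCB4.1 was at 13.56, 13.56, 13.57 and 13.49 and LHCB4.2 at 12.82, 12.53, 12.84 and 12.61 in the same order, with opr3 responses of -0.08 and -0.23. The highest value of any array was 13.74, so a difference of LHCB4.1 may not show. These 3 were the named genes among 20 antenna genes of the gene table, a list made after the values were seen. LHCB4.3 alone was past 2-fold in opr3, as the choice of members required of it.

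**Figure D3:**
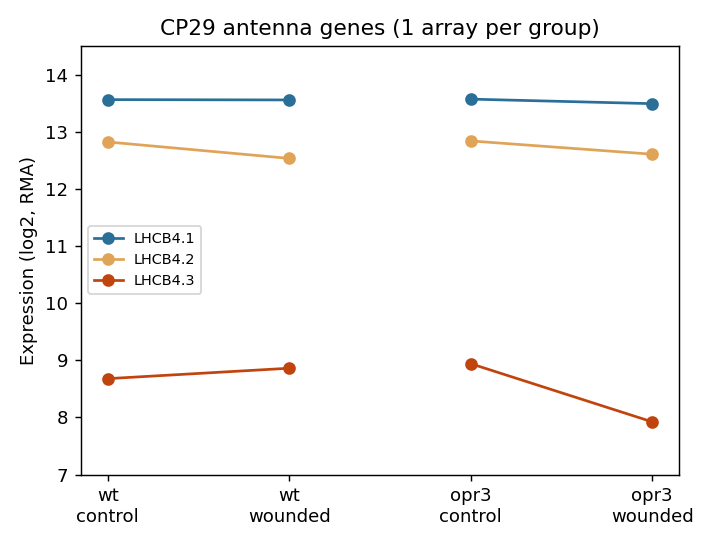
The points give the log2 expression of the CP29 genes LHCB4.1, LHCB4.2 and LHCB4.3 in the 4 arrays, joined within each line. LHCB4.3 is at 7.92 in wounded opr3 against 8.68 to 8.94 in the other arrays, while LHCB4.1 stays between 13.49 and 13.57, and levels of different probe sets are not comparable.

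For the remaining named members the gap lay in the control plants. AT2G25735 was at 6.64 in wt control, 6.98 in wt wounded, 7.71 in opr3 control and 6.69 in opr3 wounded. Only the opr3 control array was high, 2.10-fold above wt control, and after wounding opr3 lay 1.22-fold below wt. AT5G17350 was at 4.85, 4.81, 6.04 and 4.89 in the same order. Only opr3 control stood out, 2.29-fold above wt control, and the other 3 arrays lay close to the filter level, so this fold is approximate. No role is stated here for AT2G25735, AT1G32920 and AT5G17350.

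**Figure D4:**
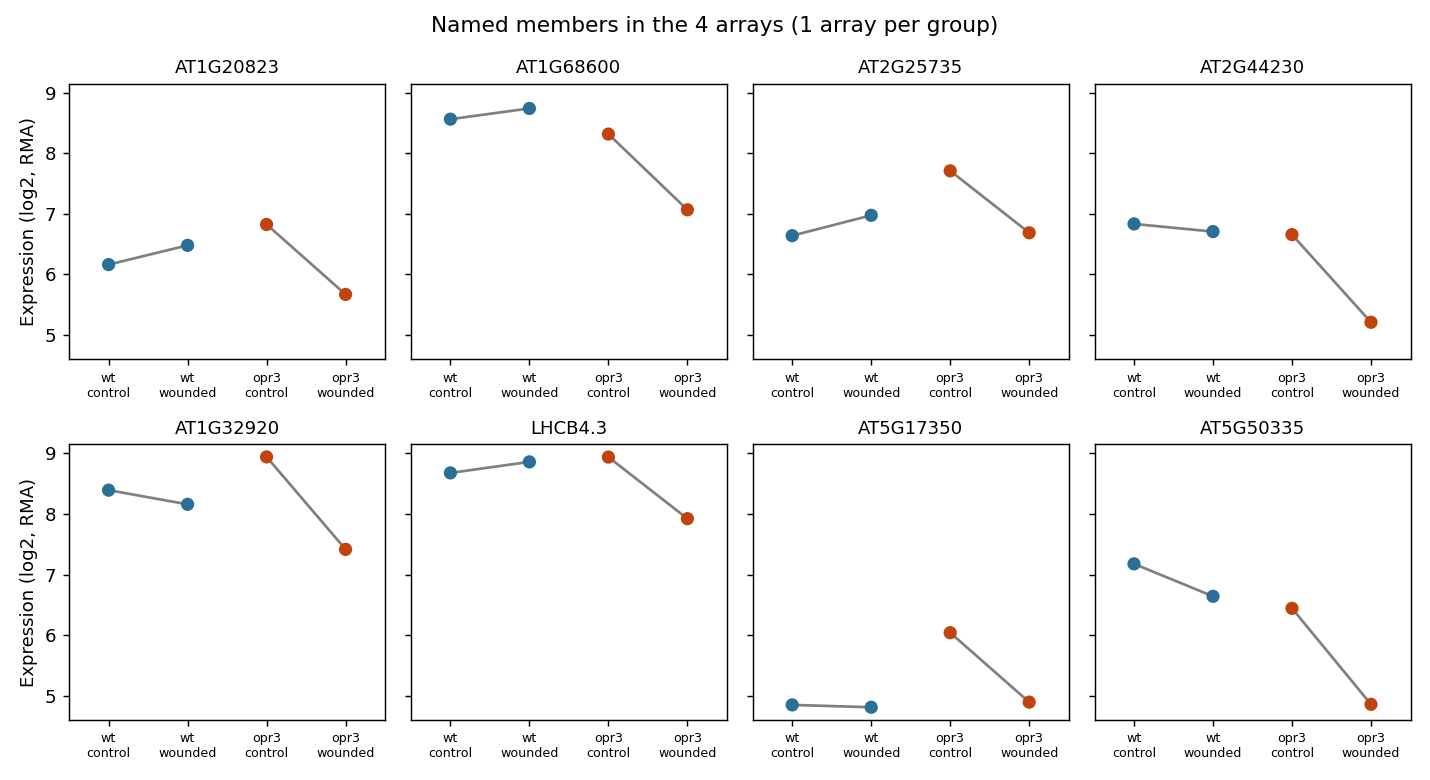
Each panel shows the log2 expression of 1 named member in the 4 arrays (blue wt, orange opr3), joined within each line, in the order of the difference of responses. AT1G68600, AT2G44230 and AT5G50335 are low in wounded opr3, whereas AT2G25735 and AT5G17350 are high in opr3 control and lie near wt after wounding.

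The members with the lowest opr3 responses had no gene listed. Probe set 245325_at was at 4.44 in wt control, 4.47 in wt wounded, 7.62 in opr3 control and 4.72 in opr3 wounded. It passed the filter only through opr3 control and was under the filter level in the other 3 arrays, near background. Its differences, which set the ends of the ranges at -2.90 and 3.17 (log2), are therefore approximate. Probe set 254120_at was at 6.52, 6.22, 8.86 and 6.05 in the same order, again with opr3 control alone high, 5.08-fold above wt control. In the other 8 unlisted members that were at least 2-fold higher in opr3 control, that gap ran from 1.18 to 2.69 (log2), and after wounding opr3 differed from wt by -0.40 to 0.64. Both upper ends came from 1 member at 4.64 in wt control, under the filter level, and 4.78 in wt wounded, so they are approximate. The 2 unlisted members with their gap in wounded plants were at -1.17 and -2.35 there, and at 0.33 and -0.63 in controls. The lowest of them had values of 7.76, 7.99, 7.13 and 5.63, so it was lower in wounded opr3 than in any other array.

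Both probe sets shared by several genes are reported without a name. The probe set of 3 genes was at 5.56 in wt control, 5.54 in wt wounded, 6.81 in opr3 control and 5.28 in opr3 wounded. That of 2 genes was at 6.66, 6.44, 6.78 and 5.54 in the same order. In the first opr3 control was high, and in the second opr3 wounded was low.

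Across the 24 members the array medians were 6.65 in wt control, 6.67 in wt wounded, 7.41 in opr3 control and 5.86 in opr3 wounded. Of the 4 arrays, opr3 control was the highest in 20 members, against 26.2% of all probe sets, and opr3 wounded the lowest in 16, against 28.7%. The choice favours both, since it puts opr3 wounded at least 2-fold below opr3 control. The gap between lines was larger in control plants than in wounded plants for 15 members and smaller for 9, and 41.8% of all probe sets had the larger gap in controls. Among the members with 1 gene these counts were 2 and 6, and among those with no gene listed 12 and 2. The choice bounds how far these gaps lie apart, so the counts are a description. In wt 11 members were higher and 13 lower after wounding, close to the 43.8% and 56.2% of all probe sets. The clearest opposite movement was in an unlisted probe set with values of 6.58, 7.46, 8.55 and 7.06, which was 1.85-fold higher in wounded wt and 2.8-fold lower in wounded opr3.

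The limits on the opr3 response and on the difference of responses cut through a continuous range. Just inside the opr3 limit were LHCB4.3 (-1.02) and AT2G25735 (-1.02), and just outside AT4G02850 (-0.98) and AT2G17610 (-0.92). For the difference of responses AT5G50335 (-1.05) and AT5G17350 (-1.11) were just inside, and AT4G37220 (-1.0, above the limit before rounding) and AT2G35460 (-0.98) just outside. At the wt limits the nearest named members, AT5G50335 (-0.54) and AT2G25735 (0.34), lay well inside, and AT1G13650 (-1.01) and AT4G29780 (1.04) lay just outside. AT1G13650, AT4G29780 and AT4G37220 also have names that the choice leaves out, so they could not have been members. The member nearest the filter level was AT5G17350, with a highest value of 6.04.

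Among all 245 probe sets that were at least 2-fold lower in wounded opr3, 80 were also at least 2-fold lower in wounded wt, 164 lay within 2-fold in wt, and 1 was at least 2-fold higher there, as were 3.95% of all probe sets. Of these 164, 134 had responses within 2-fold of each other in the lines. These limits require a lower signal in wounded wt as well, and their median wt difference was -0.72. The median gap between the lines in controls was 1.12 for the members, 0.17 for these 134 and -0.05 for the 80 lower in both lines. After wounding it was -0.39, -0.23 and -0.10. The converse choice, at least 2-fold lower in wounded wt and within 2-fold in opr3 with responses at least 2-fold apart, gave 61 probe sets. Their gap between lines lay mostly in wounded plants, with medians of 1.36 there and -0.12 in controls. These groups were cut from the same 4 arrays, and their gaps were not tested against each other.

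Genes of touch, stress, growth and nutrient pathways were looked up in 21 lists with 238 loci. Of these loci 33 were named on the array, 28 passed the filter, and none was a member. Only 8 of all 7972 probe sets used with 1 gene were members, so nothing is read from this. The lack of a member is also in part set by the names left out. EXO, a brassinosteroid-responsive gene of these lists, met all the values. It was at 6.33 in wt control, 6.39 in wt wounded, 8.47 in opr3 control and 7.14 in opr3 wounded. STZ, WRKY53 and BHLH101 could not have been members for the same reason. The 4 touch and calcium genes that passed had a median opr3 response of 0.05 and a median difference of responses of -0.34, against medians of -0.03 and 0.03 over all probe sets. CML38, a calmodulin-like calcium sensor, was the only one of them with a difference of responses past 2-fold (-1.32), with responses of 0.84 in wt and -0.48 in opr3 (log2). CML41 and CML42 were higher after wounding in both lines, with opr3 responses of 1.21 and 0.58, and CML23 was lower in both (-0.51 in opr3). CML41 was at 4.32 in opr3 control, under the filter level, so its opr3 response is approximate. Both rapid stress regulators that passed were at least 2-fold higher in opr3 control than in wt control, a call made for 0.418% of all probe sets. Both were known to be so when the lists were made, and they are no independent evidence. STZ, a zinc finger repressor, had a control gap of 1.05 and WRKY53, a transcription factor of defence and senescence, one of 1.11. Their opr3 responses of -0.69 and -0.53 did not reach the limit.

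Of 6 cell wall genes that passed, only EXPA8, an expansin that loosens walls, was past 2-fold in opr3 (-1.26), and it was as low in wt (-1.36). XTH18, a xyloglucan-modifying enzyme, had a difference of responses of -1.20 but was higher in wounded wt (1.5) and near its control in opr3 (0.31). Its wt control value of 4.43 was under the filter level, so these sizes are approximate. Of the 3 auxin genes none was lower past 2-fold in opr3, and of the 2 iron genes BHLH101 was lower in both lines. BHLH101 was at 4.02 in wounded wt and 3.86 in wounded opr3, both under the filter level, so its decrease is approximate in size. The cytokinin response genes ARR15 and RR16 had opr3 responses of -0.28 and -0.40, and the clock gene GI was at 0.16.

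The leaf genes RCA, LHCB4.1 and PRK lay between 12.21 and 13.57 in every array, and their opr3 responses were between -0.37 and 0.03. The guard cell regulator FMA was between 6.06 and 6.45. Markers of phloem, xylem, epidermis and flower had no named probe set and were not analysed here. In RNA of whole leaves fewer cells of a type and less RNA per cell cannot be told apart. No probe set was named OPR3, so the lesion was not checked. As a sign of labelling quality, 5' probe sets of the bacterial spike-ins were read against their 3' partners in 8 pairs. The mean log2 difference was -1.27 for opr3 control, -1.29 for opr3 wounded, -1.16 for wt control and -2.0 for wt wounded. The wt wounded array, which had the lowest value, enters every wt response, every gap in wounded plants and every difference of responses, and its part in them was not tested. The sources used here do not give time of harvest or handling, and with 1 array per group they cannot be told apart from line or wounding.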

How the data were processed

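Per the submitters' processing notes, the authors made the deposited log2 values per probe set with RMA, which corrects background, equalises the arrays by quantiles and summarises probes, and with Partek, named without versions. The sources used here do not give the authors' genome build or annotation. Of 22810 probe sets, 64 array controls were left out, and 14599 reached 4.73 (the 40th percentile of all values, rounded) on at least 1 array. Names came from the platform annotation and the gene table of assembly TAIR10.1: 13484 of 13513 probe sets with 1 gene matched, 503 had several genes, and 8730 plant probe sets were not listed. No coordinates are given. Differences of log2 values were computed with Python 3.11.15 and pandas 2.3.3, and alternative scalings with limma 3.58.1. No test was run, since 1 array per group leaves no residual spread. The number of arrays limits the precision. The rule was checked on simulated data. That simulation lowered only the opr3 wounded array and used independent normal noise, so members with a high opr3 control were not covered.

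The members and lists were chosen with earlier results of these data known. The rule for names allowed every member with 1 gene, the 2 lowest unlisted members in opr3, and up to 2 named probe sets on each side of a limit. Grouping by words of gene products was not done, because 1 of 8 named members has a text name in the gene table. Promoter motifs and sequences were not analysed here. Loci were looked up in lists of touch and calcium, rapid stress, ethylene, salicylate, immune receptor, cell wall, brassinosteroid, auxin, cytokinin, clock, iron, phosphate, nitrate, sugar starvation and heat shock genes and of cell type markers. No locus of the salicylate, phosphate, nitrate and sugar starvation lists was named. The heat shock gene AT1G53540 was under the filter. EIN3 of the ethylene list had an opr3 response of 0.28, and the immune genes BIK1 and EFR were at 0.81 and 0.40. PYE of the iron list was at -0.50, and EXO was the only named gene of the brassinosteroid list.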

Additional observations from a re-analysis of the deposited data

Results flagged for a closer look

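In 4 of the 8 named members the wt difference was above 0 while the opr3 difference was below 0, as the choice of members required of opr3. Over all probe sets 43.8% had a wt difference above 0, a share close to that. The difference of responses, opr3 minus wt, was -1.47 (log2) for AT1G20823, -1.43 for AT1G68600, -1.36 for AT2G25735 and -1.20 for LHCB4.3. The wt differences were small, at 0.32, 0.18, 0.34 and 0.18 in the same order. Those of AT1G68600 and LHCB4.3 were below 0.19, the central spread, over probe sets, of opr3 control minus wt control. That spread compares 1 array of each line and does not measure variation between plants. The choice required a difference of responses of at least 2-fold, and the difference was not tested.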

How the results depend on the processing

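Of 78 repeats of the counts and medians, 57 stayed within 1.5 times the reported count or within 0.19 (log2) of the reported median. The limit of 0.19 is the central spread, over probe sets, of opr3 control minus wt control. Median centring, quantile normalization, cyclic loess, both other filters and keeping the names were all among the 57. With only probe sets of 1 gene the median wt difference changed sign, from -0.03 to 0.07, which counted as within the limit. The scalings chose 28, 28 and 24 probe sets, of which 24, 24 and 23 were members, and LHCB4.3 was the named member lost with loess. The filter at the 60th percentile left 23 and lost AT5G17350, and the level without rounding, added after seeing the data, left 24. The difference of responses of the named members ran from -1.54 to -1.10 over the alternative scalings, and from -1.47 to -1.05 on the deposited values.

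The fold limit moved most values. With limits of 1.5-fold, 173 probe sets were chosen, 23 of them at least 2-fold higher in opr3 control and 12 at least 2-fold lower in opr3 wounded, with medians of -0.84 for the opr3 response and 0.55 for the control gap. With limits of 3-fold, 5 were chosen, 5 of them higher in opr3 control and 0 lower in opr3 wounded, with medians of -2.52, 2.35 and, for the wounded gap, -0.12, and no named member was left. With only probe sets of 1 gene, 8 were chosen, 2 higher in opr3 control and 3 lower in opr3 wounded, with medians of -1.20, 0.41 and -0.87. Probe sets lower after wounding numbered 1124 in opr3 and 1243 in wt at 1.5-fold, and 36 and 43 at 3-fold. Here fewer or more probe sets pass by construction. No paired analysis was possible because each group has 1 array. For the same reason no array could be left out. Signal near background limits 245325_at, AT5G17350, AT5G50335 and the unlisted member at 4.64 in wt control.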
